A study of Mus musculus with 4 samples.

Results

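The 9 genes described here code for structural proteins of myelin, the membrane that oligodendrocytes wrap around axons in the spinal cord. They are Mbp, Mog, Mag, Mobp, Cnp, Mal, Cldn11, Ermn and Pllp, and each was taken as the row of the count table with exactly that name, 9 of 42458 rows. All 9 had counts and entered the tests. The data are bulk RNA-seq counts from the spinal cord of 4 C57BL6 mice, named mice 1 to 4, each giving 1 library of 50 sorted cells from slices around the ependymal region. Every mouse carried tdTomato, a red fluorescent protein, delivered by the adeno-associated virus AAV2-CAG-tdT into a brain ventricle to mark neurons that touch the cerebrospinal fluid (CSF-cNs). The CAG promoter of the virus is active in most cell types, and live tdTomato-positive cells were collected by fluorescence-activated sorting. Each library is a pool of these cells. The mice, whose age the labels do not give, form a single group with no control group among the samples analysed here, so the data give levels and the spread between mice, not an effect of a treatment.

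Myelin is laid down in layers that are pressed together, called compact myelin, and keeps channels of cytoplasm at its edges, called non-compact myelin. In compact myelin the basic protein coded by Mbp holds the cytoplasmic faces of the membrane together, and Mobp codes for a further small basic protein of these layers. Mal and Pllp code for membrane proteins that span the bilayer several times, and Cldn11 codes for the claudin of the tight junctions between myelin layers. Cnp codes for an enzyme of non-compact myelin, Mag for an adhesion protein that faces the axon, Mog for a protein on the outermost surface of the sheath, and Ermn for a cytoskeletal protein found late in oligodendrocyte maturation. In the spinal cord, myelinating oligodendrocytes are the known main source of these transcripts.

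The libraries held between 83007030 and 115479640 counts. Values are given in CPM (counts scaled to a common library total) after TMM normalization, which scales libraries to each other. A count of 0 still allows up to 3 counts, or 0.0278 to 0.0348 CPM depending on the library. Intervals and this limit take in counting error alone. Lists of 4 values run from mouse 1 to mouse 4. All libraries are labelled as enriched in CSF-cNs, but the channel gene Pkd2l1, their defining marker, had 17.9, 0.193, 664 and 690.2 CPM and the row of the viral transgene 5, 58, 13533 and 153379 counts. The libraries of mice 1 and 2 thus held less of both, and the counts of called genes are also given without them. Microglial genes had the largest summed level of the cell type lists in every library.

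The 9 genes together made up 4728, 170.5, 6648 and 386 CPM. As a share of a library's counts that is 0.442%, 0.0167%, 0.691% and 0.0405%. The libraries of mice 1 and 3 were thus high in myelin transcripts and those of mice 2 and 4 low, and the sum in mouse 3 was 39.0 times that in mouse 2. Mice 1 and 3 were close to each other, with 1.41 times as much in mouse 3 as in mouse 1. The mean of the log2 of this summed CPM was 10.23 ± 2.62 (SD, n = 4). In bulk samples fewer cells of a type and less RNA per cell cannot be told apart, so these sums do not count oligodendrocytes. Mouse 1 had 5 transgene counts and mouse 4 had 153379, and the relation of transgene counts to these sums was not tested.

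In the mouse genome (GRCm38, GENCODE M21) the 9 genes are protein-coding and do not form a cluster. Mog lies on chromosome 17 (37010743 to 37023398), Mag on 7 (30899176 to 30914873), Mobp on 9 (120149707 to 120181484), Cnp on 11 (100574904 to 100591729) and Cldn11 on 3 (31149920 to 31164324). Ermn (58045113 to 58052864) and Mal (127633226 to 127656695) are both on chromosome 2, and Pllp is on 8 (94674894 to 94696278).

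Of the compact myelin genes, Mbp stood at 1312, 31.3, 1690 and 217 CPM and Mobp at 544, 16.6, 872 and 57.1 CPM. Both were above 10 CPM in every library, and for both mouse 4 was the higher of the low libraries. Mal, by contrast, had 346, 2.11, 528 and 5.09 CPM, and Cldn11 had 43.4, 0.899, 65.1 and 1.91 CPM. Per kb of exon, Cldn11 was the lowest of the 9 genes in mice 1 and 3. Pllp had 138, 0.353, 182 and 0.167 CPM, the values of mice 2 and 4 resting on 33 and 15 counts. For all 5 of these genes, mice 1 and 3 had the higher values and did not overlap with mice 2 and 4. Of all 18522 tested genes, 18.1% had mice 1 and 3 as their 2 highest libraries in this way. Of the 1815 tested genes averaging 100 CPM or more, 23.2% did.

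Of the genes for non-compact myelin and the sheath's surfaces, Cnp had 898, 103, 1440 and 70.5 CPM. Its libraries differed least among the 9 genes, by a factor of 20.4. Mag, the adhesion gene of the axonal side, had 519, 13.9, 691 and 33.3 CPM. Mog, the outer surface gene, had 217, 0.717, 216 and 0 CPM by its own row, with 67 counts in mouse 2 and none in mouse 4. Ermn, the cytoskeletal gene, had 710, 2.03, 964 and 0.981 CPM. Its values in mice 2 and 4 rest on 190 and 88 counts. These 4 genes too had no overlap between mice 1 and 3 on one side and mice 2 and 4 on the other. As given above, 18.1% of all tested genes, and 23.2% of those averaging 100 CPM or more, had this split.

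**Figure D1:**
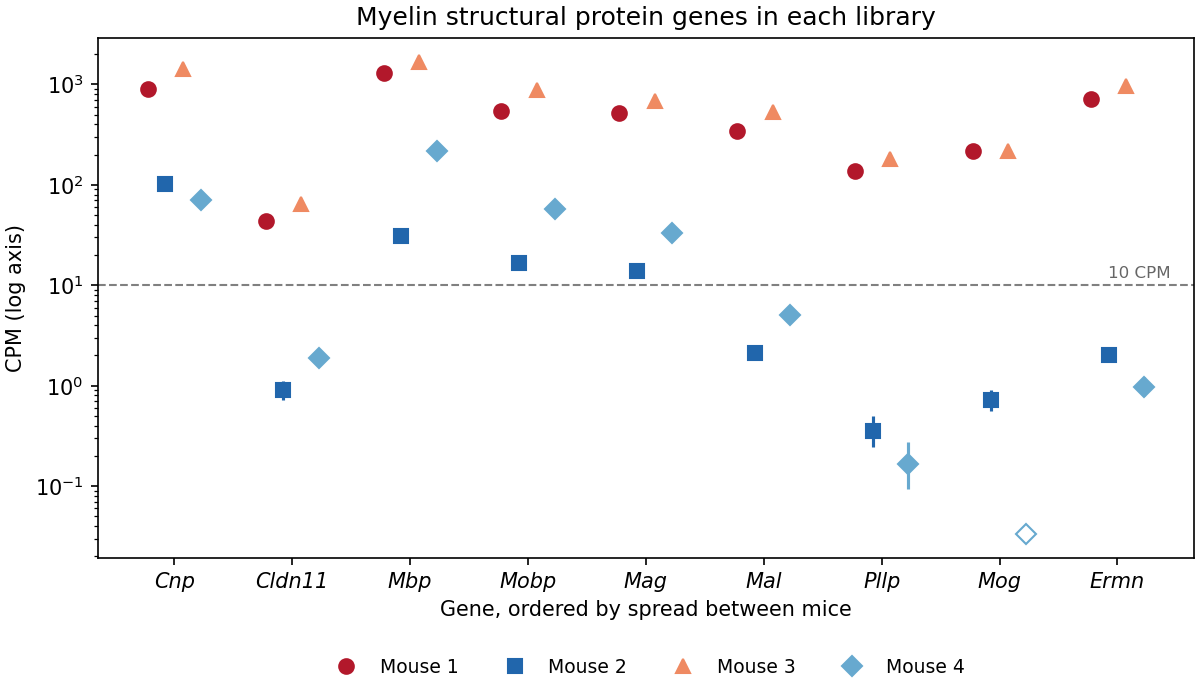
CPM of the 9 genes on a log axis in the libraries of mice 1, 2, 3 and 4, with genes ordered from left to right by the SD over mice of log2(CPM + 1). Vertical bars are 95% Clopper-Pearson intervals for counting error, the open symbol is Mog in mouse 4, which had 0 counts and is drawn at the limit of 3 counts, and all 9 genes are high in mice 1 and 3, while Ermn, Mog, Pllp, Mal and Cldn11 lie below the dashed line of 10 CPM in mice 2 and 4.

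Since all 9 genes were highest in the same libraries, the sequence around their starts was searched for motifs, and 4 windows are shown. SOX10 and MYRF are transcription factors known to drive myelin genes, and the letters ACAAAG and ACAATG (bound by SOX factors) and CTGGCAC and CTGGTAC (bound by MYRF) were searched on both strands. None of these motifs overlaps another in the windows shown. The windows run from 250 bases before to 50 after the start, from RefSeq on GRCm38.p6. Those of 8 of the 9 genes were searched, and Mbp was left out. Mobp is shown for its repeated motif, Cnp and Mag because each holds a motif of both kinds, and Ermn as the gene with the largest SD over mice of log2(CPM + 1). They lie at chr9:120149492-120149791 (Mobp, plus strand), chr11:100574689-100574988 (Cnp, plus strand), chr7:30914814-30915113 (Mag, minus strand) and chr2:58052815-58053114 (Ermn, minus strand). Capitals mark the motif matches on either strand, and each sequence runs 5′ to 3′ on the strand of its gene.
Mobp: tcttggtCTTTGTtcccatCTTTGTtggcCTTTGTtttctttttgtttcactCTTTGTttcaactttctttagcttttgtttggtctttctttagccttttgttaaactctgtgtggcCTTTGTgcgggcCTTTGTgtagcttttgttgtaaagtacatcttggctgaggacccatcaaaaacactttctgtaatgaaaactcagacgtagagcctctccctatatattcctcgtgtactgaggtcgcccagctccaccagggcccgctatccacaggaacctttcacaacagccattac
Cnp: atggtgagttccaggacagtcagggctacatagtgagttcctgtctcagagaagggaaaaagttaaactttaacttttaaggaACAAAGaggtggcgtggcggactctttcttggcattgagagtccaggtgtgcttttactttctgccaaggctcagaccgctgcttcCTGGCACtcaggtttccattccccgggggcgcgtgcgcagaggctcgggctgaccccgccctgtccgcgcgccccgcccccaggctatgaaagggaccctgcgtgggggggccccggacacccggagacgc
Mag: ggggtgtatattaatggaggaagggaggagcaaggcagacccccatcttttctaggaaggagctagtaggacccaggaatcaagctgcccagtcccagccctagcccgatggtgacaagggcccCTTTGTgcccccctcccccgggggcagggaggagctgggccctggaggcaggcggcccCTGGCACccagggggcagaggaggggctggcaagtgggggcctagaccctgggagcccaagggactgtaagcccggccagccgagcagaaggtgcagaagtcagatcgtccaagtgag
Ermn: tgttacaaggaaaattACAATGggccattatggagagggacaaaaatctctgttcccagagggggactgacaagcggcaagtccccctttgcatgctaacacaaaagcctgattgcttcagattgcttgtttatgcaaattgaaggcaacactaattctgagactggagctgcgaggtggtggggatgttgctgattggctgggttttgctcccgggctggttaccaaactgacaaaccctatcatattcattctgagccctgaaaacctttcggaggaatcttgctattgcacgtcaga

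Mobp held 6 matches to ACAAAG, all read on the opposite strand as CTTTGT, and it was the only 1 of 32851 windows with that many. In all, 18.7% of windows held ACAAAG at least once and 0.198% held it 3 times or more. Cnp and Mag each held ACAAAG once and CTGGCAC once, and CTGGCAC was present in 5.01% of windows. Ermn held ACAATG once, which 12.6% of windows did, and Mog held CTGGTAC once, against 2.24% of windows. The windows of Mal, Cldn11 and Pllp held none of the 4 motifs. Among the genes with a match were Cnp, with a small spread between mice, and Ermn, with a large one. Among those without were Cldn11, with a small spread, and Pllp, with a large one. Any link between matches and levels or spread was not tested. A match is a run of letters in this window and no measure of binding.

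Whether each level differed from 10 CPM, a low level chosen for the test, was asked with edgeR's quasi-likelihood test over all 18522 tested genes. Of the 9 myelin genes, 8 were called above 10 CPM, against 6795 of all tested genes (36.7%). The median log2 level relative to 10 CPM was 4.97 over the 9 genes and -0.07 over all tested genes. These levels are not scaled by length. Each SE is the size of the level divided by the square root of the test's F statistic. It therefore changes with the reference level and is no measure of the spread over the 4 mice. For Mbp it was 0.22 against 5 CPM and 0.33 against 20 CPM, while DESeq2 gave an SE of 0.94 and limma-voom 0.81. Mbp was at 6.34 (SE 0.27, edgeR adjusted p = 2.6e-06) and Cnp at 5.97 (SE 0.27, adjusted p = 3.3e-06). Ermn was at 5.39 (SE 0.57, edgeR adjusted p = 2.6e-04), Mobp at 5.22 (SE 0.36, 2.9e-05), Mag at 4.97 (SE 0.39, 5.9e-05) and Mal at 4.46 (SE 0.57, 7.3e-04). Mog at 3.44 (SE 0.90, edgeR adjusted p = 0.023) and Pllp at 3.00 (SE 0.87, 0.036) passed more narrowly, and Cldn11 at 1.48 (SE 0.77, 0.19) was not called.

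Because this test averages counts rather than logs, a high value in some mice can suffice for a call. Mbp, Cnp, Mag and Mobp stood at 10 CPM or more in 4 of 4 libraries, while Mog, Mal, Ermn and Pllp did so only in mice 1 and 3. The count of called genes was 6 without mouse 1 and 6 without mouse 3, since Mog (edgeR adjusted p = 0.17 and 0.17) and Pllp (0.18 and 0.27) were lost. Of all tested genes, 36.3% and 36.7% were called in these fits. With limma-voom, whose means are of log values, 4 of the 9 genes were called, namely Mbp, Cnp, Mag and Mobp, against 35.9% of all genes. DESeq2 called 6, against 39.5% of the 15578 genes to which it gave an adjusted p. It gave none to 2944 of the 18522 tested genes, so this share has a smaller base than the others. Of the 9 genes, edgeR against 20 CPM called 6 (25.5% of all genes), and edgeR against 5 CPM called all 9 (45.3%). Without mice 1 and 2, an alternative chosen after seeing the data for their few transgene counts, 6 were called, against 37% of all genes. In the same fit 12 of 20 other myelin proteins, 5 of 18 node and contact genes, 19 of 23 lipid enzymes and 2 of 12 transcription factors were called, from the lists described further on.

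The 9 genes varied more between mice than most genes did. The median SD over mice of log2(CPM + 1) was 2.78 over the 9 genes and 0.58 over all tested genes. For the 1815 genes averaging 100 CPM or more, the median SD was 0.36. Ermn had an SD of 4.86, which 0.22% of these 1815 genes exceeded, and Cnp an SD of 2.18, which 3.97% exceeded. The remaining genes lay between, with Mog at 4.27, Pllp at 4.04, Mal at 3.85, Mag at 2.78, Mobp at 2.67, Mbp at 2.65 and Cldn11 at 2.64.

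**Figure D2:**
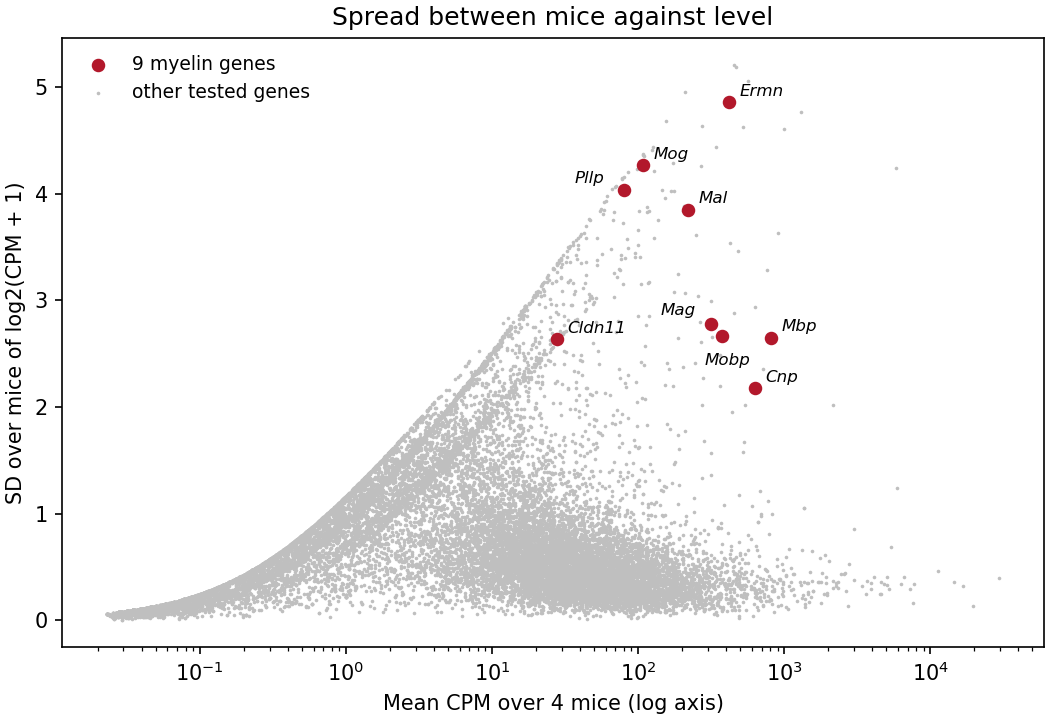
SD over the 4 mice of log2(CPM + 1) against the mean CPM on a log axis, for the 9 myelin genes (labelled) and the other tested genes. The 9 genes lie between SDs of 2.18 (Cnp) and 4.86 (Ermn), above the median of 0.58 over all tested genes, and Ermn, Mog, Pllp and Mal form the upper part.

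How far a gene dropped between libraries differed within the set. The ratio of the highest to the lowest library was 20.4 for Cnp, 49.7 for Mag, 52.7 for Mobp, 54.0 for Mbp and 72.5 for Cldn11. It was 250.3 for Mal, 983 for Ermn and 1090 for Pllp, whose lowest library held 15 counts (95% Clopper-Pearson interval 0.0936 to 0.276 CPM). For Mog the lowest library had no count, and mouse 1 stood at 6504 times the limit of 3 counts in mouse 4. The 95% Clopper-Pearson interval of Mog in mouse 4 reached above that limit, to 0.0411 CPM, so 6504 is no strict lower bound. The value of 6504 holds for the exact Mog row alone. With the numbered rows of Mog summed (described further on), mouse 4 had 22 counts and the ratio of mouse 1 to mouse 4 was 1617. The largest ratios were thus those of the outer surface protein gene Mog, the membrane protein genes Pllp and Mal, and the cytoskeletal gene Ermn. The smallest were those of the enzyme gene Cnp, the adhesion gene Mag and the basic protein genes Mobp and Mbp.

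The 9 genes did not all run the same way between the low libraries. Mbp was 6.95 times as high in mouse 4 (217 CPM) as in mouse 2 (31.3 CPM), Mobp 3.45 times, Mal 2.42 times, Mag 2.40 times and Cldn11 2.12 times. Cnp ran the other way, at 70.5 CPM in mouse 4 and 103 CPM in mouse 2, a ratio of 0.687, and so did Ermn, at 0.981 CPM in mouse 4 and 2.03 CPM in mouse 2, a ratio of 0.482. These are values of 1 library each, with no test of the difference between both mice. For Pllp even the counting intervals overlapped, at 0.0936 to 0.276 CPM in mouse 4 and 0.243 to 0.496 CPM in mouse 2. Between the high libraries the ratios of mouse 3 to mouse 1 ran only from 0.994 (Mog) to 1.61 (Cnp).

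To set the genes beside each other, CPM were divided by exonic length in kb, since longer transcripts give more counts. On this scale the 9 genes had nearly the same mix in mice 3 and 1, with 5.48% of the mix differing (the share that would have to move from some genes to others to make both mixes equal). In mice 4 and 2 the mix differed by 42.7% from one to the other, and by 39.2% to 48.8% from those of mice 1 and 3. Cnp made up 70.3% of the summed CPM per kb in mouse 2, and 21.5%, 24.8% and 29.9% in mice 1, 3 and 4. Mbp made up 39.7% in mouse 4, and 13.5%, 9.22% and 12.5% in mice 1, 2 and 3. Ermn, with 17.1% and 16.6% in mice 1 and 3, held 1.40% in mouse 2 and 0.417% in mouse 4.

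**Figure D3:**
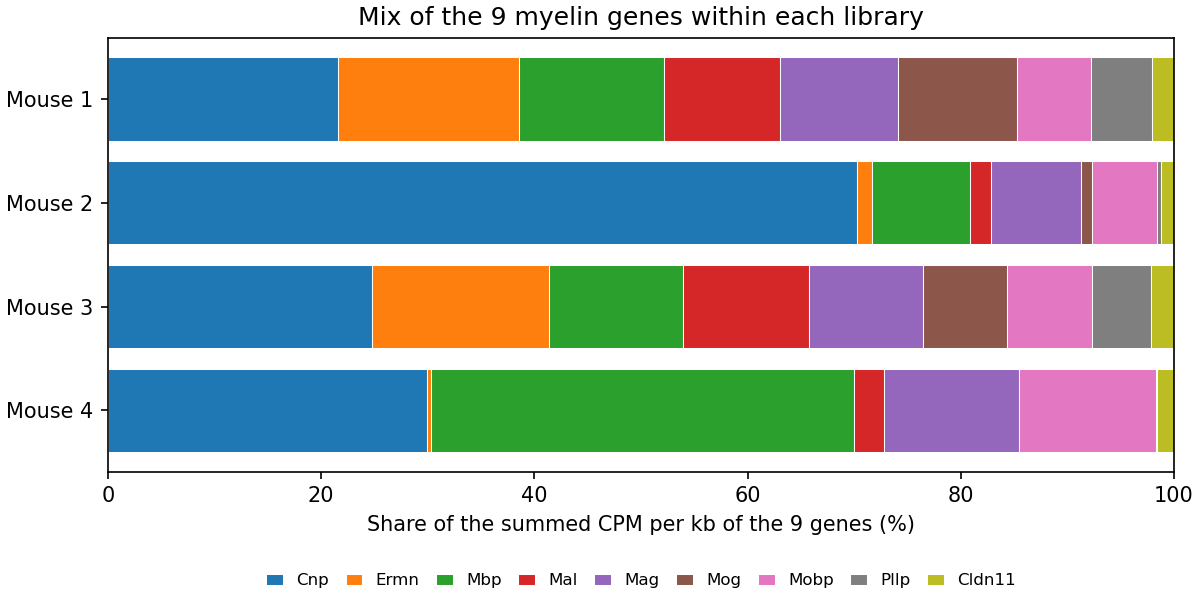
Share of each gene in the summed CPM per kb of exon of the 9 genes, with 1 bar for each of mice 1, 2, 3 and 4. Mice 1 and 3 have nearly the same mix, while Cnp takes 70.3% in mouse 2 and Mbp and Cnp take 39.7% and 29.9% in mouse 4.

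By mean level per kb the order was Cnp (172.5 ± 182 CPM per kb, SD, n = 4), Ermn (115 ± 136), Mbp (96.0 ± 96.0), Mal (79.3 ± 93.9), Mag (77.2 ± 84.2), Mog (63.7 ± 73.3), Mobp (54.4 ± 59.9), Pllp (38.5 ± 45.1) and Cldn11 (14.9 ± 17.0). The order rests on the length used: with the longest transcript in place of all exons, Mbp (169 CPM per kb) and Mag (129) stood above Ermn (115), and Mobp (113) came just below it. Of the 8 neighbours in the order by exonic length, only Cnp over Ermn had a mean log2 ratio above its own SD (3.18 ± 3.15, higher in 4 of 4 mice). The other neighbours did not differ beyond their spread, and Mbp over Ermn, at 2.13 ± 3.29, was positive in 2 of 4 mice. That mean log2 ratio runs against the order of the mean levels. So do those of Mag over Mal (1.05 ± 1.29), Mobp over Mog (3.29 ± 5.52) and Cldn11 over Pllp (0.57 ± 2.46). Ermn was second of 9 in mice 1 and 3, and sixth and seventh in mice 2 and 4.

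Each of the 36 pairs was compared within a mouse as a log2 ratio of CPM per kb. The direction was the same in 4 of 4 mice for 21 pairs. Cnp was the higher gene in 7 of these and Mbp in 6. With 4 mice, an exact permutation test that flips signs (two-sided) cannot give a p below 0.125, and no pair passed after Benjamini-Hochberg adjustment over 36 pairs (smallest adjusted p = 0.214). The steadiest pair was Ermn over Pllp, with log2 ratios of 1.56, 1.70, 1.60 and 1.71 and a mean of 1.64 ± 0.08 (SD, n = 4; exact permutation p = 0.125, adjusted p = 0.214). Both genes differed by about the same factor between libraries, although the ratio in mouse 4 rests on 88 counts of Ermn and 15 counts of Pllp. Mag over Mobp (0.39 ± 0.30) and Mag over Cldn11 (2.64 ± 0.33) were the next steadiest. Cnp over Mbp was less steady, at 0.67, 2.93, 0.99 and -0.41, so Cnp was the higher in 3 of 4 mice.

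The row of Mog needs a reservation, because the table holds 3 further rows with its name and a number, and no such rows for the other 8 genes. The first of them, Mog_1, had 163, 0.471, 228 and 0 CPM, against 217, 0.717, 216 and 0 CPM for Mog itself. Mog_2 and Mog_3 had identical counts, at 8.14, 0, 12.5 and 0.123 CPM each. The table has 2 columns per mouse, taken as repeat runs of 1 library, and in mouse 1 the Mog row had 12887 counts in run 1 and 10592 in run 2, while Mog_1 had 7507 in run 1 and 10056 in run 2. Summed over the 4 rows, mouse 1 had 21282 and 21518 counts in its runs, and mouse 3 had 20172 and 20310. For the other 8 genes the second run over the first, each scaled by the total of its run, was 0.943 to 1.06 wherever a mouse had at least 1000 counts of the gene (24 cases). With the 4 rows summed, an alternative chosen after seeing the data, Mog stood at 396, 1.19, 469 and 0.245 CPM (mean ± SD over the mice 217 ± 251), and its log2 level was 4.44 (edgeR adjusted p = 0.0021). The sum counts Mog_2 and Mog_3 separately although their counts are the same.

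**Figure D4:**
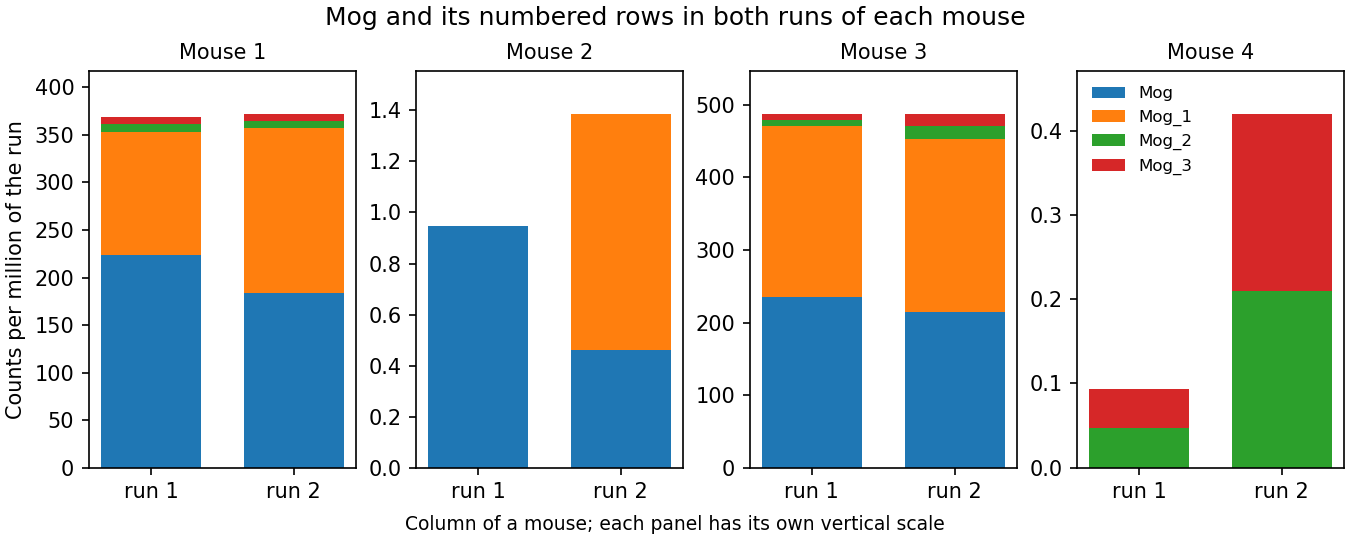
CPM within a run for the row of Mog and its 3 numbered rows, stacked, in run 1 and run 2 of each mouse, with a separate vertical scale in each panel. The stacks of mice 1 and 3 have nearly the same height in both runs while the parts change, and the stacks of mice 2 and 4 rest on 111 and 22 counts in all.

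Neighbouring genes overlap the exons of some members. The library kit does not keep the strand, and 154 bases of Cnp's exons overlap Dnajc7, a chaperone gene on the opposite strand with 27086, 16410, 18116 and 19752 counts. Cnp had 96936, 9588, 124254 and 6328 counts, and the part of Dnajc7 reads in them was not tested. For Ermn, 237 bases overlap Galnt5, which had 0 counts in all 4 libraries. For Pllp, 1128 bases overlap Gm45767, an antisense gene whose part in the Pllp values was not tested.

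Other genes that oligodendrocytes use to build myelin were given by 4 lists, with 75 genes in all. Of the enzymes of myelin lipids, 20 of 23 tested were called above 10 CPM by edgeR, against 36.7% of all tested genes, and 21 of 23 had mice 1 and 3 as their 2 highest libraries, as all 9 myelin genes did, against 18.1% of all tested genes. This pattern was taken from the 9 genes themselves, so it is a description with no test. The median log2 level relative to 10 CPM was 3.64 over the lipid enzymes, 4.07 over the other myelin proteins, -0.16 over the node and contact genes and 0.00 over the transcription factors, beside -0.07 over all tested genes. Each list is shown by its 4 genes with the highest mean CPM. Hmgcs1, an enzyme of cholesterol synthesis, had 1221, 20.7, 1213 and 73.4 CPM, and Ugt8a, which makes the galactolipids of myelin, 756, 0.396, 1044 and 1.18 CPM. Scd2, a fatty acid desaturase, had 638.5, 23.5, 737 and 53.3 CPM. Cers2, a ceramide synthase gene, had closer values, at 593, 348, 597 and 266 CPM.

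Of the list of other myelin proteins, 13 of 20 tested were called above 10 CPM, against 36.7% of all tested genes. Mice 1 and 3 were the 2 highest libraries for 15 genes of this list, against 18.1% of all tested genes. Its 3 genes with the highest means were not among these 15: the tetraspanin gene Cd9 had 1358, 1699, 1142 and 1646 CPM, Evi2a 772, 857, 544 and 821 CPM, and Pmp22 780, 867, 682 and 585 CPM. Klk6, a protease gene of oligodendrocytes, had 898, 3.80, 1357 and 0.546 CPM. Of the genes of nodes and of contact between axon and glia, 4 of 18 were called, against 36.7% of all tested genes. That rank pattern was found in 11 of 18, against 18.1% of all tested genes. The gap junction gene Gjb1 had 188, 0.353, 323 and 0.914 CPM, the junction gene Jam3 177, 18.1, 127 and 27.6 CPM, and the cytoskeletal gene Epb41l3 135, 22.2, 285 and 42.7 CPM. Sema4d, a semaphorin gene, had 112, 132, 163 and 92.3 CPM.

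Of the transcription factors of the oligodendrocyte lineage, 2 of 12 tested were called above 10 CPM, against 36.7% of all tested genes. Mice 1 and 3 were the 2 highest libraries for 8 of 12, against 18.1% of all tested genes. Zeb2 (128, 140, 83.2 and 132 CPM) and St18 (15.4, 3.11, 100.2 and 38.0 CPM) were called, and neither had that pattern. Nkx6-2 stood at 39.4, 0.343, 51.1 and 0.0557 CPM and Tcf7l2 at 14.2, 18.6, 5.12 and 20.6 CPM. The factors whose motifs were searched are named for that reason, and neither was called: Sox10 stood at 26.4, 0.0214, 23.9 and 0.0223 CPM and Myrf at 7.50, 0.685, 10.9 and 0 CPM.

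The genes whose profile over the 4 mice was nearest to the mean profile of the 9 genes were sought among 1808 others with a mean of at least 100 CPM, by the root mean square difference of centred log2(CPM + 1). The nearest was S100b, a calcium-binding protein gene often used to mark glia, at a difference of 0.22, against a median of 2.89 over all candidates. S100b had 298, 4.20, 439.9 and 10.5 CPM. It was followed by Plin3 (0.46), Agpat4 (0.47), Anln (0.56), Gpm6b (0.58), Hmgcs1 (0.59), Cryab (0.60), Cnn3 (0.66), Cmtm5 (0.70) and Scd2 (0.75). The genes nearest to single members differed among them. They were Aldoc for Mbp (0.26), Enpp2 for Mog (0.30), Scd2 for Mag (0.26) and Mobp (0.28), Mgst3 for Cnp (0.13), Gjb1 for Mal (0.37), Cnn3 for Cldn11 (0.16), Enpp6 for Ermn (0.26) and Cmtm5 for Pllp (0.09). This likeness is a description over 4 libraries and carries no test.

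Markers of other cell types that make or hold myelin transcripts were examined beside these values. Of the Schwann cell list, which covers the myelinating cells of peripheral nerve, Prx, Scn7a and Foxd3 had 0 counts in all libraries. Pmp2 had 324 counts in mouse 1 and 0 in the others. Ncmap, Mlip and Dhh had 274, 138 and 30 counts in mouse 3, and 0 to 2 in the others. The list summed to 84.3, 34.2, 55.7 and 30.6 CPM. Nearly all of it came from 2 genes. Egr2, a transcription factor gene also known from myeloid cells, had 53.7, 34.1, 17.2 and 30.5 CPM, and Cdh19, a cadherin gene, had 27.6, 0.0749, 33.4 and 0.0334 CPM. Of the list of oligodendrocyte precursors, Pdgfra, Gpr17, Neu4, Bmp4 and Susd5, 5 of 10 genes, had 0 counts in all libraries. The sum of the list was 0.195, 0.482, 14.5 and 4.70 CPM. Its largest values in mice 3 and 4 were those of Lhfpl3 (0, 0, 9.86 and 3.69 CPM) and Vcan (0.111, 0.482, 4.00 and 0.969 CPM).

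The astrocyte list summed to 1253, 161, 1349 and 299 CPM and so moved with the myelin genes. In mice 1 and 3 most of that sum was Aldoc (835, 11.6, 846 and 118 CPM) and S100b. Slc1a3, a glutamate transporter gene, had 115, 122, 52.2 and 155 CPM, which was most of the sum in mouse 2 and the largest value of the list in mouse 4, and it was lowest in mouse 3. Gfap (3.91, 23.5, 7.79 and 0 CPM) and Aqp4 (0.00926, 0.182, 0.707 and 5.45 CPM) had other profiles. The microglia list summed to 68670, 76630, 44950 and 66450 CPM and the list of the response to dissociation to 18840, 13240, 6481 and 11430 CPM. Their part in the myelin values was not tested. The CSF-cN list summed to 20.3, 12.9, 941 and 846 CPM and the pan-neuronal list to 129, 105, 1087 and 410.4 CPM. Both were highest in mouse 3, and the CSF-cN list was lower in mouse 1 than in mouse 4. The part of both lists in the myelin values was not tested. The ependymal, endothelial and red blood cell lists stayed at or below 87.9, 25.6 and 3.45 CPM.

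**Figure D5:**
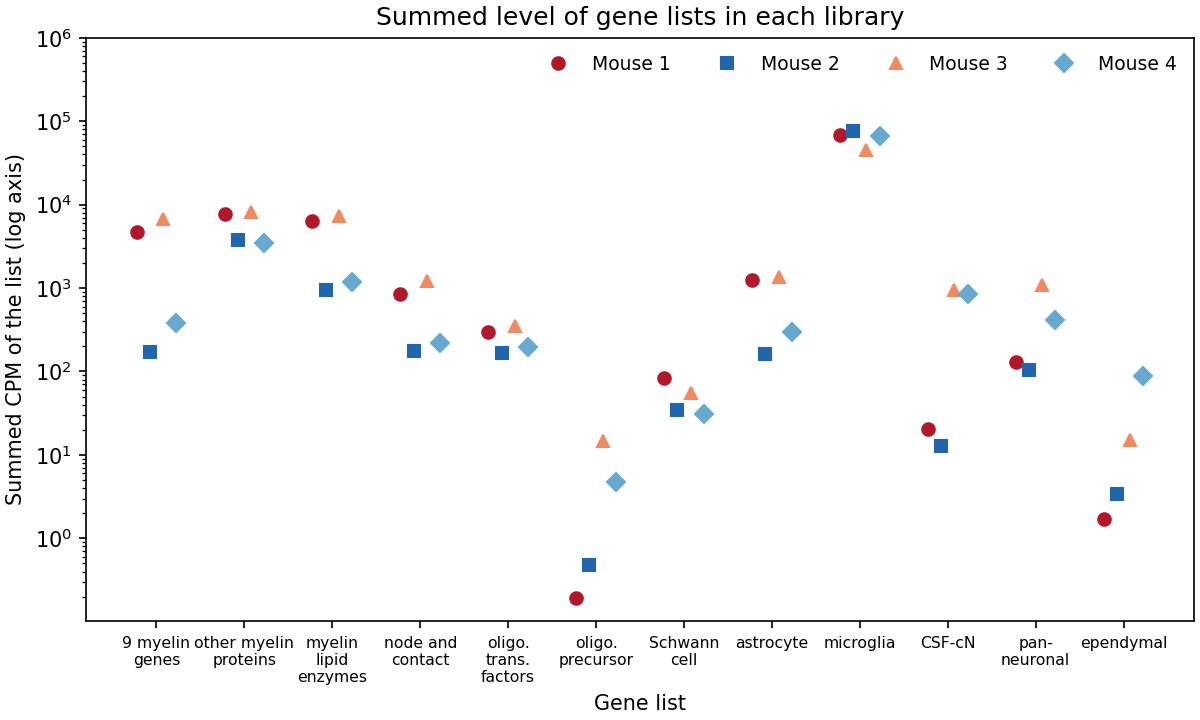
Summed CPM of gene lists on a log axis in the libraries of mice 1, 2, 3 and 4, starting with the 9 myelin genes. The 9 myelin genes and the myelin lipid enzymes are high in mice 1 and 3, the CSF-cN list is high in mice 3 and 4, and the microglia list is between 44950 and 76630 CPM in every library.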

How the data were processed

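RNA of 50 sorted cells from each of 4 mice was made into cDNA with the SMART-Seq v4 kit (11 PCR cycles) and into libraries with Nextera XT, per the labels' protocols, with no molecular identifiers. The deposited count table holds whole-number counts for 42458 rows in 2 columns per mouse. FastQC, Trim Galore, STAR, RSEM and DESeq2 with the mm10 build are named per the submitters' processing notes. Roles, versions and annotation: not given in the sources used here. A deposited table of log2 values was read, from its values, as the log2 of size-factor-scaled counts plus 1, and served only as an alternative.

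The 2 columns of a mouse were summed, because no label names a second sample, and scaled to CPM with TMM factors. Totals ran from 83007030 to 115479640 counts. Genes with at least 10 counts in total (18522) entered an intercept-only quasi-likelihood fit in edgeR 4.0.16 (R 4.3.3), which tested the level against 10 CPM with Benjamini-Hochberg adjustment and a threshold of 0.05. The fit was run on counts simulated with its own fitted spread and 1 mean per gene. That does not test it on genes split into high and low libraries as the 9 genes are. Alternatives were DESeq2 1.42.0, limma 3.58.1 (voom), other scalings, filters and reference levels, single runs and leaving out mice. CPM per kb used exon lengths of GENCODE M21. Pairs had 0.5 counts added before the log2 ratio, and spreads used log2(CPM + 1). Intervals are 95% Clopper-Pearson intervals. Promoter sequences are from RefSeq (GRCm38.p6). The 9 genes and all lists were chosen with earlier results of these data known. Named from the lists were the 4 genes of each pathway list with the highest mean CPM, the 10 genes nearest to the mean profile and the nearest gene of each of the 9. Other genes are named because a result turns on them.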

Additional observations from a re-analysis of the deposited data

Results flagged for a closer look

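Of 71 sets of 4 values examined, 5 had 1 library standing apart from the rest (gap over range above 0.829), and chance flags about 1 set in 20. All 5 are log2 ratios of CPM per kb between members. Mbp over Mag stood apart in mouse 4 (gap over range 0.895), where the log2 ratio was 1.65, against 0.28, 0.12 and 0.23 in mice 1, 2 and 3. Cnp over Mag stood apart in mouse 2 (0.857). Mal over Mog (0.905), Ermn over Mog (0.889) and Pllp over Mog (0.872) stood apart in mouse 4, where the Mog row had 0 counts, so these ratios rest on the 0.5 counts added before the log.

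Rows outside the rule for members also held signal. Mog_1 averaged 97.8 CPM, while Mog_2 and Mog_3 averaged 5.20 CPM each, beside 108.5 CPM for Mog itself.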

How the results depend on the processing

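No paired analysis was possible because the mice form a single group. Of the 9 genes, 4 were called with limma-voom, where Mog (-1.18, adjusted p = 0.64), Cldn11 (-0.20, 0.86) and Pllp (-0.52, 0.78) fell below 10 CPM on the log2 scale without passing and Mal (1.95, 0.18) and Ermn (1.85, 0.31) no longer passed. limma-voom also called 7 of the other myelin proteins and 1 transcription factor, and the 20 CPM level left 13 lipid enzymes and 1 transcription factor. Of all tested genes, limma-voom called 35.9% and edgeR against 20 CPM called 25.5%. Leaving out each mouse in turn gave 6 to 8 of the 9 genes, 12 to 16 other myelin proteins, 3 to 5 node and contact genes, 14 to 20 lipid enzymes, 1 to 2 transcription factors, 6304 to 6573 of all genes, 21 to 25 pairs ordered alike, a log2 sum of 9.40 to 11.17 and a median spread of 2.45 to 3.20. The transcription factors fell to 1 without mouse 3 and to 1 without mouse 4. Across 135 alternative values of the single genes, 119 kept direction and call, and Cldn11 was called at 5 CPM (2.48, edgeR adjusted p = 0.021). Mog and Pllp lost their call most often, also with DESeq2 (adjusted p = 0.15 and 0.082). Without length scaling 28 pairs were ordered alike, and with the longest transcript 27, against 21. The cause of these shifts was not tested. The values of Mog and Pllp in mice 2 and 4 rest on 67 counts or fewer.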
